A study of Mus musculus with 6 samples.

Results

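A set of 10 cytokine genes of the interleukin-1 family and the colony-stimulating factors were followed in sorted mouse prostate tumor cells: Il1a, Il1b, Il1rn, Il18, Il33, Il6, Csf1, Csf2, Csf3 and Il34. They were chosen by name, as transcript clusters annotated with exactly 1 gene symbol, and all 10 were measured, each by 1 cluster, among 30142 genes tested. The tumors were allografts of MCRedAL, a single mouse prostate cancer line that carries the red fluorescent protein mCherry, grown in male mice. In the degarelix group (3 samples), tumor-bearing mice received subcutaneous degarelix, which blocks the pituitary receptor for gonadotropin-releasing hormone and so withdraws androgen, once tumors had grown to about 500 mm2 (unit as in the labels). In the untreated group (3 samples), called castration sensitive by the submitters, mice were left without drug. Titles of the degarelix group begin with 7dPC, a tag left unexplained. The sources used here do not give strain, age or any pooling of animals, and the labels call the samples biological replicates. In both groups the sort kept cells with mCherry and without CD45, CD11b and F4/80, surface proteins of leukocytes, myeloid cells and macrophages, and RNA with an integrity number of at least 9 was read on Affymetrix MTA 1.0 arrays.

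Values are log2 expression values as deposited, and changes are degarelix minus untreated on that scale. A gene was said to rise or fall where its adjusted p in limma was under 0.05 over all genes tested. The arrays carry 23 background probe sets, whose values ran from 2.14 to 6.93. Genes below the upper end were not brighter than all of these sets, and how far they lay from the background was not measured. Between 29.8% and 30.9% of genes lay above 6.93 on each array. Of the prostate epithelial markers, Krt8, a luminal keratin, lay at 11.83 to 12.09 after degarelix and at 11.25 to 11.90 in untreated samples, and the transcription factor gene Foxa1 at 9.37 to 9.47 after degarelix and at 9.40 to 9.60 in untreated samples. The epithelial adhesion genes Epcam and Cdh1 and the keratin gene Krt18 stayed below 6.93 on all 6 arrays. Among untreated samples, replicate 1 stood apart for many of the genes below, and values without it are given where they differ.

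Interleukin-1 alpha and interleukin-1 beta are alarm cytokines that act on the same receptor, and the receptor antagonist encoded by Il1rn blocks that receptor without signalling. Interleukin-18 and interleukin-33 are relatives with receptors of their own. Interleukin-1 beta and interleukin-18 are made as precursors that inflammasome caspases cleave, while interleukin-33 is kept in the nucleus and released from damaged cells. Interleukin-1 acts through NF-kB to induce further cytokines, among them interleukin-6 and the colony-stimulating factors. Csf1 and Il34 encode ligands of the macrophage receptor Csf1r, Csf3 the growth factor of neutrophils, and Csf2 a growth factor of granulocytes, macrophages and dendritic cells.

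Of the 10 genes, 3 rose after degarelix (Il33, Csf1 and Il18), none fell and 7 did not pass the test. Over all genes, 4.19% rose and 7.51% fell, or 11.7% together. The median change of the 10 genes was 0.30, against 0.04 over all genes tested. The groups did not overlap, with degarelix above, for 5 of the 10 genes (Il33, Csf1, Il18, Csf3 and Il34), against 14.8% of all genes. They did not overlap, with degarelix below, for Il1a and Il1b, against 16.4% of all genes.

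**Figure D1:**
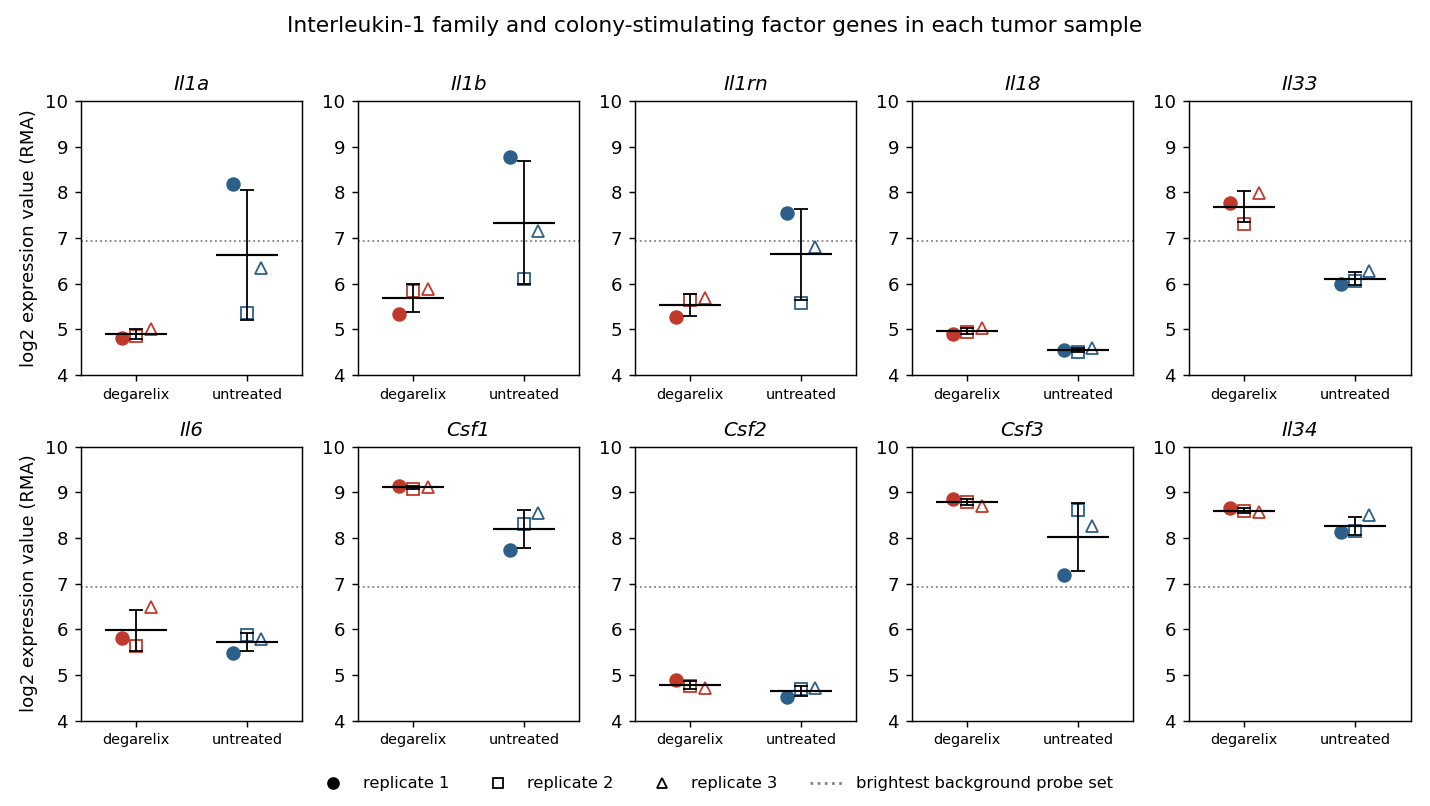
Log2 expression value (y axis) of each of the 10 genes in the degarelix samples (red, left) and the untreated samples (blue, right), with 1 point per sample, the marker shape giving the replicate, and bars for the mean and SD (n = 3 per group). The dotted line is the brightest background probe set at 6.93. Il33 and Csf1 lie higher in all degarelix samples. Untreated replicate 1 lies at the top for Il1a, Il1b and Il1rn and at the bottom for 6 genes, Csf3 among them.

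The interleukin-1 ligands spanned a wide range among untreated tumors and a narrow one after degarelix. Il1a was at 4.81, 4.86 and 5.02 in degarelix replicates 1 to 3, against 8.17, 5.37 and 6.35 in untreated replicates 1 to 3. Il1b was at 5.34, 5.85 and 5.88 after degarelix, against 8.77, 6.09 and 7.15 in untreated samples. In both genes the groups did not overlap, untreated replicate 1 was the highest of all samples, and untreated replicate 2 lay nearest to the degarelix samples. The SD of Il1a was 0.11 after degarelix and 1.42 in untreated samples (n = 3 each), and that of Il1b was 0.30 after degarelix and 1.35 in untreated samples. The degarelix values lay below 6.93, where differences are compressed, so the SDs of the groups may not be alike as measures of spread.

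The mean change of Il1a was -1.74 (SE 0.57, 95% interval -3.03 to -0.44, unadjusted), with an adjusted p of 0.0874 in limma, and did not pass the test. The change of Il1b was -1.65 (SE 0.55, 95% interval -2.90 to -0.40), with an adjusted p of 0.0929 in limma. All degarelix values of both genes lay below 6.93, as did untreated replicates 2 and 3 of Il1a and untreated replicate 2 of Il1b. How far these values were from the background cannot be read from these arrays. The size of the change depended on single untreated samples. Without untreated replicate 1 the change of Il1a was -0.97 (limma adjusted p = 0.0362) and that of Il1b -0.93 (adjusted p = 0.0716). Without untreated replicate 2 the changes were -2.37 (adjusted p = 0.0144) and -2.27 (adjusted p = 0.0136) in limma. Leaving out the highest untreated sample thus shrank the difference of Il1a while its adjusted p passed the threshold. Every Il1a value left in that fit lay below 6.93.

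Il1rn, the antagonist, had the same order of untreated samples as its agonists. It was at 5.27, 5.65 and 5.69 after degarelix, against 7.55, 5.58 and 6.80 in untreated replicates 1 to 3. Only untreated replicate 1 lay above 6.93, the brightest background probe set. The groups overlapped, since untreated replicate 2 lay among the degarelix samples. Its change of -1.11 (SE 0.41, 95% interval -2.04 to -0.17) did not pass the test in limma (adjusted p = 0.126). It was -1.64 (adjusted p = 0.00386) without untreated replicate 2 and -0.65 (adjusted p = 0.202) without untreated replicate 1. Over the 6 arrays, which fall into 2 groups and share that division, Pearson's r was 0.992 between Il1a and Il1b, 0.967 between Il1a and Il1rn and 0.983 between Il1b and Il1rn. These correlations are descriptions of 6 samples, and untreated replicate 1, the highest for each gene, weighs heavily in them.

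Il1a and Il1b lie on the same strand of chromosome 2, at 129299609 to 129310186 and 129364569 to 129371164, and Il1rn lies on the same chromosome at 24336860 to 24351491 (GRCm38.p6). Because Il1a and Il1b had nearly the same pattern, the 250 bases upstream of their RefSeq transcript starts are shown, each 5′ to 3′ on the minus strand. The Il1a window is chr2:129309973-129310222, which lies partly inside the annotated span of the gene, and the Il1b window is chr2:129371140-129371389. Capitals mark TATAAA in both and TGANTCA, the motif of AP-1 factors, in Il1a.
Il1a: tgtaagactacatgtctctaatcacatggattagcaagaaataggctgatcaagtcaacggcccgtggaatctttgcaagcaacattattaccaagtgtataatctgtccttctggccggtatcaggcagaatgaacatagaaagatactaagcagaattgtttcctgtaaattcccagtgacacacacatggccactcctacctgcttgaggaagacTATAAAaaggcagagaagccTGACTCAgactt
Il1b: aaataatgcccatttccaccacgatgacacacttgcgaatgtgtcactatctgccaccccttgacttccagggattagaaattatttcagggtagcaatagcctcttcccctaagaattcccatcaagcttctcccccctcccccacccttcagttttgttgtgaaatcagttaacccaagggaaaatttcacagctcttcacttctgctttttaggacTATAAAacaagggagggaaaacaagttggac
TATAAA starts 32 bases before the transcript start of Il1a and 31 bases before that of Il1b. Searched on both strands, it was found in 12.4% of 32851 such windows of all genes, and TGANTCA in 6.75%. RefSeq windows were matched for 8 of the 10 genes, 11 windows in all, and Csf3 and Il34 had none. Among these windows TATAAA was found for Il1a, Il1b, Il18 and Il33, and TGANTCA for Il1a, Il1rn and Il6. The kappa-B consensus, the motif of NF-kB, was found in the windows of Csf1 and Il6, against 3.9% of all windows. The C/EBP motif TTNNGCAA was found in windows of Csf2, Il33 and Il6 (9.56% of all windows), while TGACGTCA (1.55%) and the androgen response element consensus (0.0365%) were in none of the 11. These matches describe letters in the windows.

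The pattern of Il1a and Il1b across samples was shared by genes of macrophages, and in part by endothelial markers given below. Among 533 named genes with an SD of at least 0.5 over the 6 arrays, those most like Il1a by Pearson's r were Ms4a7 (0.998), Ctss (0.993), Il1b (0.992), Cybb (0.992), Plek (0.985) and Tyrobp (0.984). Those most like Il1b were Ctss (0.996), Ms4a7 (0.996), Lyz2 (0.994), Il1a (0.992), Lyz1 (0.991) and Cybb (0.989). Ctss encodes a lysosomal protease of antigen-presenting cells, Cybb the catalytic subunit of the phagocyte oxidase, Lyz1 and Lyz2 lysozymes, and Tyrobp a signalling adaptor of myeloid cells. Lyz1 and Lyz2 are near-identical paralogs and may share signal. Lyz2 was at 5.51, 5.98 and 6.27 after degarelix, against 9.02, 6.26 and 7.65 in untreated replicates 1 to 3. Ms4a7 was at 4.22, 4.36 and 4.46 after degarelix, against 6.53, 4.55 and 5.32 in untreated samples. As in Il1a and Il1b, untreated replicate 1 was highest and untreated replicate 2 lay closest to the degarelix samples. Values of r without untreated replicate 1 were not computed.

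The sort was meant to remove such cells, so markers of macrophages and monocytes and the genes of the sort gate were set beside the cytokines. The untreated samples stood in the order replicate 1, replicate 3, replicate 2 from high to low for 11 of 12 macrophage or monocyte genes and for Ptprc (CD45), Itgam (CD11b) and Adgre1 (F4/80), against 16.9% of all genes. The exception, Ly6c2, rose by 1.57 after degarelix. Cd14 had the order 1, 3, 2, but its degarelix values (6.99, 7.25 and 7.10) lay above untreated replicates 2 and 3 (6.44 and 6.94). Pearson's r with Il1a was 0.49 for Cd14 and ran from -0.65 (Ly6c2) to 0.998 (Ms4a7) over the 12 genes. The mean log2 level of the 12 genes was 6.02 to 6.08 in degarelix samples, against 7.01, 5.83 and 6.36 in untreated replicates 1 to 3. Their summed level on the linear scale was 2107 to 2339 after degarelix, against 2435, 1100 and 1650 in untreated replicates 1 to 3. Without Ly6c2, an omission made after its values were seen, the sum was 743 to 771 after degarelix. It was then 1930 in untreated replicate 1, 695 in replicate 2 and 1080 in replicate 3. None of the 11 passed the test. Ptprc was at 3.72 to 3.77 after degarelix, against 4.47, 3.68 and 3.93 in untreated samples, and Adgre1 at 4.91 to 5.02 after degarelix, against 6.05, 4.87 and 5.24 in untreated samples. Csf1r, the receptor of the macrophage growth factors, was at 5.57 to 5.69 after degarelix, against 6.67, 5.53 and 5.64 in untreated samples. All 3 gate genes stayed below 6.93 on all arrays. So did 6 of the 12 macrophage or monocyte genes, Ms4a7 and Csf1r among them, and 2 of the 12 lay above it on all arrays. In sorted bulk samples fewer cells of a type and less RNA per cell cannot be told apart, and the part of such cells in the values of Il1a, Il1b and Il1rn was not tested.

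**Figure D2:**
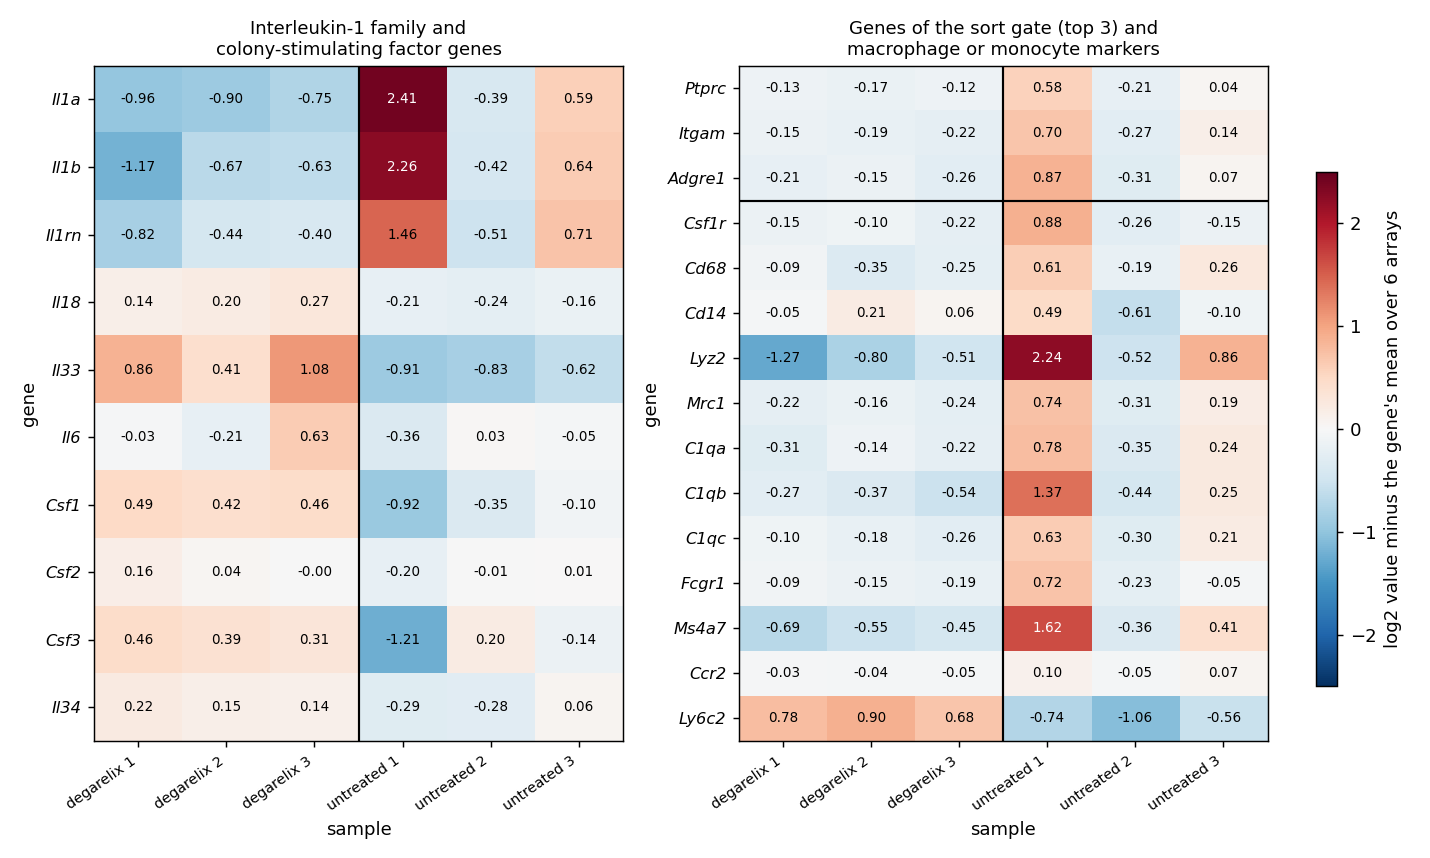
Log2 value minus the gene's mean over the 6 arrays (colour and printed number) for the 10 cytokine genes (left) and for 3 genes of the sort gate and 12 macrophage or monocyte markers (right), with samples as columns, degarelix left of untreated. Il1a, Il1b and Il1rn and 14 of the 15 genes on the right have their highest value in untreated replicate 1. In 6 of the 10 cytokine genes, Csf1 and Csf3 among them, the lowest value is there.

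Neutrophil markers did not share this pattern. All 10, among them S100a8, S100a9 and Csf3r, stayed below 6.93 on all arrays, and their mean log2 level was 4.54 to 4.67 after degarelix and 4.50 to 4.54 in untreated samples. Of the 10, Ltf rose by 0.48 and Ly6g by 0.38. The untreated order 1, 3, 2 was held by 5 of 6 endothelial and 4 of 6 dendritic or mast cell markers, against 16.9% of all genes. Untreated replicate 1 was the highest of all samples for 5 of the endothelial and 2 of the dendritic or mast cell markers. Cdh5, an endothelial gene, was at 7.14, 7.15 and 7.34 after degarelix, against 7.99, 7.23 and 7.55 in untreated samples. The endothelial exception, Vwf, fell by 0.71.

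Untreated replicate 1 also departed from its group for Csf3 and Csf1, in the opposite direction. The rule that chose the 10 genes asked for attention to that sample, so the following counts are a description, and the step of 0.5 was chosen after the values were seen. Untreated replicate 1 lay at least 0.5 above both other untreated samples for Il1a (by 1.82), Il1b (1.62) and Il1rn (0.75), against 0.846% of all genes. By this measure Il1a was in place 3 and Il1b in place 8 of 30142 genes. It lay at least 0.5 below both for Csf3, at -1.07 against the lower of them, and Csf1, at -0.57, against 1.33% of all genes. For Il18, Il33, Il6, Csf2 and Il34 it lay within 0.5 of the nearer of the other untreated samples. It was the lowest of the 6 samples for 6 of the 10 genes, against 19.0% of all genes. These were Csf1, Csf3, Il33, Il6, Csf2 and Il34, the last at only -0.01 against the lower of the other untreated samples. The values of Csf3 ran nearly opposite to those of Il1a over the 6 arrays (Pearson's r = -0.993, a description). Untreated replicate 1 was the extreme sample of both genes and weighs heavily in this r, which was not computed without it.

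Il33 had the largest rise of the 10 genes. It was at 7.76, 7.31 and 7.98 in degarelix replicates 1 to 3, against 5.99, 6.07 and 6.27 in untreated replicates 1 to 3. All degarelix samples lay above all untreated samples, and only the degarelix samples exceeded the brightest background probe set. The change was 1.57 (SE 0.16, limma adjusted p = 6.40e-04), a 2.97-fold difference. It lay between 1.42 and 1.76 when each sample was left out in turn, with an adjusted p of at most 0.00581 in limma. Its receptor gene Il1rl1 was not analysed here.

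Il18 rose by a small step at a dim level. It was at 4.89, 4.95 and 5.02 after degarelix, against 4.54, 4.51 and 4.59 in untreated samples. The groups did not overlap and their SDs were 0.07 after degarelix and 0.04 in untreated samples (n = 3 each). The change was 0.41 (SE 0.07, limma adjusted p = 0.00704), a 1.33-fold difference, with all 6 values below 6.93. Under cyclic loess normalization the change was 0.32 and the call ended (adjusted p = 0.0556).

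RefSeq lists 2 transcript starts for Il33, on the plus strand of chromosome 19 at 29925113 and 29945790, and the 250 bases before each are shown because the gene rose most. They are chr19:29924863-29925112 and chr19:29945540-29945789 (GRCm38.p6), with capitals for TATAAA and, in the second, for TTNNGCAA read on the opposite strand.
Il33, upstream start: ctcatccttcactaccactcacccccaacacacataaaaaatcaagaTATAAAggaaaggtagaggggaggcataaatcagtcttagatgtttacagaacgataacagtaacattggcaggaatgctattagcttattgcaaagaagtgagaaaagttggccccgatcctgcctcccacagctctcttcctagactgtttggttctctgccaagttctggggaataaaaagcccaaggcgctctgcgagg
Il33, downstream start: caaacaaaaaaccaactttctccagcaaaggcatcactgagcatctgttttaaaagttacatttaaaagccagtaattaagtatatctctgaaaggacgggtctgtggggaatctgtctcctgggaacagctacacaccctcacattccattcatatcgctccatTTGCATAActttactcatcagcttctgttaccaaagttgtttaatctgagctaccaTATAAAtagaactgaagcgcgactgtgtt
TATAAA starts 203 bases before the upstream start and 29 bases before the downstream start. A whole-transcript cluster does not tell which start was used.

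The macrophage growth factor gene Csf1 rose. It was at 9.14, 9.07 and 9.11 in degarelix replicates 1 to 3, against 7.73, 8.30 and 8.55 in untreated replicates 1 to 3, above the background on all 6 arrays. The degarelix samples lay close together and above every untreated sample, of which replicate 1 was the lowest. The change was 0.91 (SE 0.18, limma adjusted p = 0.0141), a 1.88-fold difference. It was 0.68 without untreated replicate 1 (adjusted p = 0.00317), and the call ended without degarelix replicate 1 (0.90, adjusted p = 0.0624). The 250 bases upstream of its start on the minus strand of chromosome 3, chr3:107760470-107760719 (GRCm38.p6), are shown because they hold the kappa-B consensus, in capitals, at 154 to 145 bases before the start and read on the opposite strand as GGGACTTTCC.
Csf1: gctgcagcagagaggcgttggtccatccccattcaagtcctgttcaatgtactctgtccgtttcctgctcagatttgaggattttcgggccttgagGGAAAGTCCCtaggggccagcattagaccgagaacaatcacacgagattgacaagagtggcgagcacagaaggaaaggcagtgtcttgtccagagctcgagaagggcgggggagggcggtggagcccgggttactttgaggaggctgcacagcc
Il34, which encodes the other ligand of the Csf1 receptor, was at 8.65, 8.58 and 8.56 after degarelix, against 8.14, 8.15 and 8.49 in untreated samples. The groups did not overlap, with untreated replicate 3 close to the degarelix samples. Its change of 0.34 (SE 0.10, 95% interval 0.11 to 0.57) missed the threshold (limma adjusted p = 0.0687), and it did pass under cyclic loess (0.43, adjusted p = 0.0261), under quantile normalization (0.42, adjusted p = 0.0260), with dim genes left out (adjusted p = 0.0437) and without untreated replicate 3 (0.46, adjusted p = 0.0151).

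Csf3 was at 8.86, 8.79 and 8.71 in degarelix replicates 1 to 3, against 7.19, 8.60 and 8.26 in untreated replicates 1 to 3. The groups did not overlap, but untreated replicate 2 lay close to the degarelix samples and untreated replicate 1 far below. The change of 0.77 (SE 0.30, 95% interval 0.09 to 1.45) missed the threshold (limma adjusted p = 0.145). It was 0.35 without untreated replicate 1 (adjusted p = 0.0687) and 1.06 without untreated replicate 2 (adjusted p = 0.0471).

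Il6 and Csf2 stayed below the brightest background probe set on all arrays. Il6 was at 5.82, 5.63 and 6.48 after degarelix, against 5.49, 5.87 and 5.80 in untreated samples, and the groups overlapped. Its change was 0.26 (95% interval -0.21 to 0.72, limma adjusted p = 0.449), and 0.01 without degarelix replicate 3, its highest sample. Csf2 was at 4.88, 4.76 and 4.71 after degarelix, against 4.52, 4.70 and 4.72 in untreated samples, also with overlap. Its change was 0.14 (95% interval -0.05 to 0.33, limma adjusted p = 0.333).

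**Figure D3:**
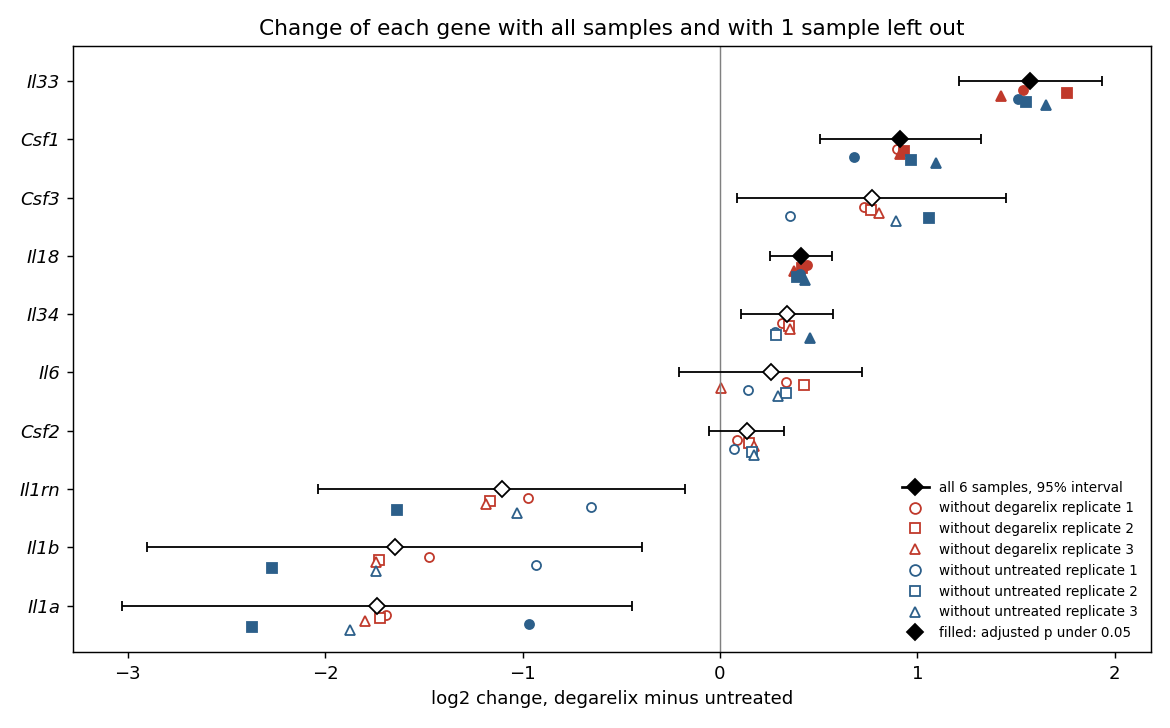
Log2 change, degarelix minus untreated (x axis), of each of the 10 genes: diamonds with 95% intervals use all 6 samples, smaller marks leave out 1 sample, and filled marks have an adjusted p under 0.05 in limma. Il33 stays between 1.42 and 1.76, while Il1a runs from -2.37 without untreated replicate 2 to -0.97 without untreated replicate 1.

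Fibroblasts can also make interleukin-33, interleukin-6 and Csf1, so fibroblast markers are given beside them, although the sort for mCherry was meant to leave out fibroblasts of the host. Of 7 measured fibroblast genes, Dcn rose by 1.46 and Fbln1 by 1.07, and 5 did not pass the test. Dcn was at 8.71, 8.55 and 9.43 in degarelix replicates 1 to 3, against 6.94, 7.35 and 8.02 in untreated replicates 1 to 3. The collagen gene Col1a1 was at 9.54, 9.27 and 9.94 after degarelix, against 9.39, 9.32 and 9.59 in untreated samples. The mean log2 level of the 7 genes was 8.33, 8.09 and 8.83 after degarelix, against 7.65, 7.66 and 7.98 in untreated samples, and their summed linear level was 2235 to 3566 after degarelix and 1897 to 2249 in untreated samples. Degarelix replicate 3 was highest for these markers, for Il33 and for Il6. The part of such cells in the values of Il33, Il6 and Csf1 was not tested.

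Receptors, processing enzymes, signalling proteins and responsive genes were counted in 8 lists with 77 measured members. Of these, 20 rose, 3 fell and 54 did not pass the test, with a median change of 0.11. Among all genes tested, the shares were 4.19% higher and 7.51% lower, and the median was 0.04. Dim genes are seldom called, so these shares are low for bright lists. Among the 9171 genes with a mean above 6.93, tested alone, 894 rose and 1910 fell. Of the 42 pathway genes among them, 19 rose and 3 fell. The 20 rises among the 77 genes include 8 of 13 genes known to respond to interleukin-1, and these make up the largest share of any list.

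Of 8 measured receptors and decoys of the interleukin-1 family, 2 rose and none fell (median 0.24). Il18rap, an interleukin-18 receptor subunit, was at 4.67 to 4.71 after degarelix, against 4.11 to 4.33 in untreated samples, and rose by 0.45 (limma adjusted p = 0.00764). Il18bp, which encodes a secreted protein that binds interleukin-18, was at 6.54 to 6.73 after degarelix, against 6.16 to 6.30 in untreated samples, and rose by 0.41 (adjusted p = 0.0120 in limma). Both lay below 6.93 on all arrays. The call of Il18bp ended without untreated replicate 3 or degarelix replicate 1 (adjusted p = 0.0507 for each). The signalling receptor gene Il1r1 was at 7.10, 6.91 and 7.20 after degarelix, against 6.78, 6.52 and 6.85 in untreated samples, a change of 0.35 that did not pass (limma adjusted p = 0.0710). Il1rl2, the interleukin-36 receptor gene, had a change of 0.39 (adjusted p = 0.0597).

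Of 13 processing genes, 1 rose and none fell (median 0.07). Casp4, which encodes the caspase of the inflammasome that senses bacterial lipopolysaccharide inside cells, was at 5.75, 5.71 and 6.07 after degarelix, against 5.09, 5.11 and 5.15 in untreated samples, and rose by 0.73 (limma adjusted p = 0.00287). Nlrp3, an inflammasome sensor of myeloid cells, was at 5.33, 5.49 and 5.54 after degarelix, against 6.93, 5.31 and 6.22 in untreated replicates 1 to 3. It thus had the same high untreated replicate 1 as Il1b, and its change of -0.70 did not pass (adjusted p = 0.221). Gsdmd, the pore protein through which interleukin-1 beta leaves cells, had a change of 0.33 (adjusted p = 0.0531). The other 5 ligands of the family, which are interleukin-36 and interleukin-38 genes, had no call and a median change of 0.05, with Il1f10 at 0.13 (adjusted p = 0.536) and Il1f6 at 0.08 (adjusted p = 0.516), and no array above 6.93.

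Of 11 measured genes of interleukin-1 receptor signalling, 2 rose and 2 fell (median 0.02). Tollip, an adaptor that restrains the receptor, rose by 0.34 (limma adjusted p = 0.0182) and the kinase gene Irak2 by 0.41 (adjusted p = 0.0210). The kinase genes Map3k7, which encodes TAK1, and Ikbkb, which encodes an activator of NF-kB, fell, at -0.30 (adjusted p = 0.0329) and -0.28 (adjusted p = 0.0343) in limma. Each of these calls ended without untreated replicate 3 or without degarelix replicate 1 (adjusted p = 0.0647 to 0.126), those of Irak2, Map3k7 and Ikbkb also without degarelix replicate 2 (0.0726 to 0.135), those of Irak2 and Ikbkb without degarelix replicate 3 (0.0511 and 0.0523), and those of Map3k7 and Ikbkb without untreated replicate 2 (0.0906 and 0.115). With median centring the calls of Irak2 (adjusted p = 0.0701) and Map3k7 (0.0522) ended, and that of Ikbkb ended with quantile normalization (0.0596) and with an intensity trend and robust variances (0.0510). Peli1 and Ikbkg had changes of -0.24 and -0.16 that did not pass (adjusted p = 0.126 and 0.219).

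Of 13 genes that respond to interleukin-1 in many cell types, 8 rose and 1 fell (median 0.48). The acute phase gene Saa3 fell, at 6.37, 6.21 and 6.13 after degarelix, against 7.24, 7.02 and 7.30 in untreated samples (-0.95, SE 0.10, limma adjusted p = 6.94e-04). The adhesion molecule gene Icam1 was at 9.41, 9.52 and 9.63 after degarelix, against 8.07, 8.29 and 8.62 in untreated samples, and rose by 1.19. Vcam1 rose by 0.69 and Ptgs2 by 0.92. The other risers were Tnfaip3, Zc3h12a, Nfkbiz, Nfkbia and Cxcl2, of which Nfkbia and Cxcl2 lost their calls without untreated replicate 2 (adjusted p = 0.105 and 0.118), degarelix replicate 1 (0.0666 and 0.138), degarelix replicate 2 (0.129 and 0.155) or degarelix replicate 3 (0.0516 and 0.0532), Nfkbia also without untreated replicate 3 (0.111) and Cxcl2 without untreated replicate 1 (0.0746). Both calls also ended with median centring (adjusted p = 0.0699 for Nfkbia and 0.103 for Cxcl2). Lcn2 (0.59) and Ccl2 (0.43) did not pass (adjusted p = 0.0598 and 0.0704). In this list untreated replicate 1 was the lowest of the 6 samples for 7 of 13 genes, against 19.0% of all genes, among them Icam1, Zc3h12a and Lcn2, whereas Il1a and Il1b had their highest values in that sample.

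**Figure D4:**
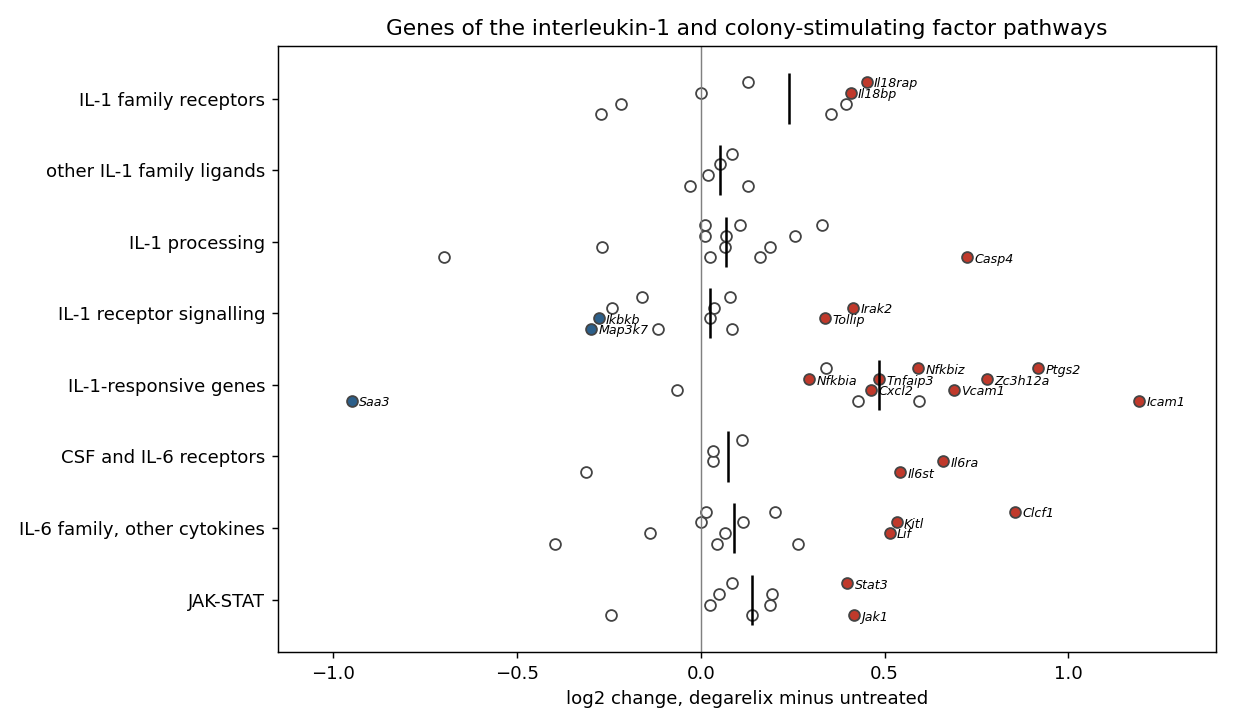
Log2 change, degarelix minus untreated (x axis), of the measured genes in 8 lists (rows); filled points passed the test in limma and carry the gene name, open points did not, and black bars are list medians. The genes that respond to interleukin-1 reach from -0.95 (Saa3) to 1.19 (Icam1), with a median of 0.48.

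Of 6 measured receptor genes for colony-stimulating factors and interleukin-6, 2 rose, both for interleukin-6 (median of the list 0.07). Il6st, the signal-transducing subunit, was at 9.09, 9.06 and 9.23 after degarelix, against 8.55, 8.52 and 8.69 in untreated samples, and rose by 0.54 (limma adjusted p = 0.00375). Il6ra, the ligand-binding subunit, was at 8.95, 9.17 and 9.37 after degarelix, against 8.53, 8.28 and 8.71 in untreated samples, and rose by 0.66 (adjusted p = 0.0167 in limma). Its call ended without degarelix replicate 2 (adjusted p = 0.0560) and with median centring (0.0547). The change of Csf1r was -0.31 (95% interval -0.90 to 0.28, limma adjusted p = 0.467) and that of Csf2ra 0.11 (95% interval -0.14 to 0.37, adjusted p = 0.545). Csf2rb and Csf2rb2 were not analysed here.

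Of 12 measured cytokines of the interleukin-6 family and other growth factors of blood cells, 3 rose and none fell (median 0.09). Clcf1, a cytokine that signals through Il6st, was at 8.04, 7.91 and 7.80 after degarelix, against 6.92, 7.04 and 7.23 in untreated samples, and rose by 0.86 (SE 0.10, limma adjusted p = 0.00117). Lif, which also signals through Il6st, rose by 0.51 (adjusted p = 0.00469) and Kitl, the stem cell factor gene, by 0.53 (adjusted p = 0.00968) in limma. Tnf was at 6.61, 6.81 and 6.93 after degarelix, against 7.79, 6.98 and 6.76 in untreated samples, with untreated replicate 1 again the highest, and its change of -0.40 did not pass (adjusted p = 0.317). Ctf1 had a change of 0.26 (adjusted p = 0.231). Of 9 measured JAK-STAT genes 2 rose and none fell (median 0.14): the transcription factor gene Stat3 by 0.40 (limma adjusted p = 0.00959) and the kinase gene Jak1 by 0.42 (adjusted p = 0.0199). The call of Jak1 ended when untreated replicate 3 (adjusted p = 0.0538) or degarelix replicate 1 (0.0645) was left out, and with median centring (0.0815). Stat5b (-0.24) and Tyk2 (0.19) did not pass (adjusted p = 0.0749 and 0.199).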

How the data were processed

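Per the submitters' processing notes, the deposited log2 values were made by the authors with Affymetrix Expression Console and RMA (versions and settings: not given in the sources used here); the log2 scale was read from the values (1.96 to 13.7). RMA brings arrays to a common distribution and compresses changes of dim genes. Of 72688 rows, 6732 controls were left out. Symbols came from the platform annotation and were updated through Entrez identifiers with RefSeq (GRCm38.p6). Of 65956 clusters, 30604 had 1 symbol, 2146 several and 33206 none, and the brightest cluster stood for each of 30142 genes. The groups were compared in limma 3.58.1 (R 4.3.3; lmFit, eBayes, two-sided, Benjamini-Hochberg over all genes), a procedure tested on simulated data. The precision is limited by 3 arrays per group. The p-values set each difference against the spread between these samples, with variances moderated over all genes. Alternatives tried were quantile normalization, cyclic loess, median centring, an intensity trend with robust variances, a filter on dim genes, other choices of cluster, the replicate number as a block and leaving out each sample.

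The genes, the lists and the attention to untreated replicate 1 were chosen with earlier results of these data known. Named genes were the 10 cytokine genes, per list up to 4 called and 2 uncalled genes (the remaining interleukin-1-responsive risers were named after their values were seen), the 6 genes most like Il1a and Il1b (SD of at least 0.5 over the arrays), and the 10 that most exceeded both other untreated samples in untreated replicate 1, both without unnamed models, small RNAs, smell receptors and immune receptor segments. Marker genes were named from fixed lists. Tables and figures used Python 3.11.15, pandas 2.3.3 and matplotlib 3.10.9. List members with no value among the genes tested were not analysed here.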

Additional observations from a re-analysis of the deposited data

How the results depend on the processing

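No gene of the 10 and none of the 23 called pathway genes changed direction under any alternative that gave a value; with dim genes left out, only Csf1, Csf3 and Il34 of the 10 had a value. Leaving out each sample gave 1590 to 4700 called genes over all, against 3526 with all samples. The count was 4700 without untreated replicate 1, 2113 without untreated replicate 2 and 1972 without untreated replicate 3. It was 1590, 1833 and 3817 without degarelix replicates 1, 2 and 3. Among the 10 cytokine genes, leaving out each sample gave 2 to 7 calls, against 3. The 7 came without untreated replicate 2 and included Il1a, Il1b, Il1rn and Csf3. In the pathway lists it gave 15 to 25 calls, against 23. The changes ranged from -2.37 to -0.97 for Il1a, -2.27 to -0.93 for Il1b, -1.64 to -0.65 for Il1rn, 0.68 to 1.10 for Csf1, 0.35 to 1.06 for Csf3 and 0.28 to 0.46 for Il34. The call of Il18 ended under cyclic loess (0.32), and Il34 passed under cyclic loess (0.43), quantile normalization (0.42) and with dim genes left out (0.34); the causes were not tested. Of the 23 pathway calls, 14 held under every alternative that gave a value. With dim genes left out, 42 of 77 pathway genes had a value, and Casp4, Il18rap and Saa3 were among those without. The other 9 calls were lost on leaving out at least 1 sample, 6 of them also with median centring (Cxcl2, Il6ra, Irak2, Jak1, Map3k7 and Nfkbia). The replicate numbers do not pair samples by any label. Deviations of same-numbered samples correlated at 0.16, 0.04 and 0.20, each sample best with its own number, as a hint from the data; with a replicate block 3806 genes, the same 3 cytokine genes and 24 pathway genes were called, while Cxcl2 and Ikbkb lost their calls (adjusted p = 0.0670 and 0.0504). Genes below the brightest background probe set, among them Il18, Il6 and Csf2, could have changed by more than was read.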

Other observations

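Unnamed models, small RNAs, smell receptors and immune receptor segments left out, the 10 genes that most exceeded both other untreated samples in untreated replicate 1 were Il1a, Ccl8, Clca1, Clec7a, Il1b, Tyrobp, Ms4a6c, Inmt, Lyz2 and Plek. Ccl8, a chemokine that attracts monocytes, was at 6.05, 6.64 and 7.01 after degarelix, against 8.77, 5.84 and 7.06 in untreated replicates 1 to 3. Clec7a, a receptor of phagocytes for fungal glucans, was at 4.79, 4.95 and 5.07 after degarelix, against 7.24, 4.82 and 5.59 in untreated samples. Both had the untreated order of Il1a and Il1b. Clca1 had another untreated order. It was at 8.90, 9.06 and 9.22 after degarelix, against 10.04, 8.37 and 7.94 in untreated samples. Inmt, a methyltransferase gene, had the untreated order of Il1a but was higher in all degarelix samples than in any untreated one, at 10.70, 10.47 and 10.59 after degarelix, against 8.51, 6.15 and 7.08 in untreated samples. The genes were chosen for their value in untreated replicate 1, so their height there is a description.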
